A study of Mus musculus with 20 samples.

Results

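The respiratory chain subunits described here are 72 genes of the 8251 that carried a gene symbol of their own on a mouse short-oligonucleotide array. They were taken by symbol: Nduf for complex I (31 genes), Sdh for complex II (6), Uqcr and Cyc1 for complex III (8), Cox4 to Cox8 for complex IV (13) and Atp5 for complex V (14). Cox7a1 and Cox8b, isoforms of heart, muscle and brown fat, were left out and are given only for comparison. The brightest probe set stands for each gene, a choice that arose for 20 of them; the members had 99 probe sets in all. The symbols also bring in the assembly factors Ndufaf1, Ndufaf4, Sdhaf1 and Sdhaf2 and the testis isoforms Cox6b2 and Cox8c. The platform gives 18 of the genes a probe set marked as one that shares probes with related transcripts or that relaxed its probe rules, Cox6a1, Cox4i1, Ndufb5, Uqcrb, Uqcrc2, Sdhb and Atp5e among them, and their values may hold signal of near copies.

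Complexes I to IV pass electrons from NADH and succinate to oxygen across the inner mitochondrial membrane and, except for complex II, pump protons as they do so. Complex V, the ATP synthase, lets the protons back and makes ATP. Nearly all of these subunits are encoded in the nucleus, several in pairs of isoforms used by heart and skeletal muscle or by other tissues, and tissues that contract without rest are known for dense mitochondria.

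The series bears on sleep apnea and glucose metabolism, and its 20 arrays form 2 sets. Heart, skeletal muscle, brain and lung of 20-week-old C57BL-6J mice gave 12 arrays, 1 for each tissue in a control state, after sleep fragmentation and after hypoxia; the regimen of the latter was not found in the labels. Subcutaneous adipose tissue gave 8 arrays in 4 groups of 2, called Con NonHyp, Con Hyp, Glucose NonHyp and Glucose Hyp. These came from mice 12 weeks old, and the labels name C57BL-6J together with C57BL-6J-Lep, an obese leptin-gene strain, for every group, without saying which array was of which strain or what Con and Glucose stand for. In the Hyp groups oxygen fell from 20.9% to 5% within 30 sec and was then restored, for 16 hours a day over 5 days; the NonHyp groups breathed room air. The labels do not say that arrays of a group came from separate animals, so a p-value here measures only the spread between arrays, which may be technical.

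Levels are log2 of the deposited intensity. In adipose tissue an intensity of 97.7 replaced anything lower, which makes 6.61 the floor of adipose levels, and in the other tissues 97.7 was added to every value. The adipose arrays keep the deposited scaling and the tissue arrays were quantile normalized, so levels are compared only within each set. Median intensity ran from 265 to 411 on 19 arrays and was 1475 on the brain hypoxia array, a gap that quantile normalization of the tissue arrays evens out. Tissue markers mostly stood where the labels put them, with Snap25 at 13.70 to 13.87 in brain, Myh6 at 12.19 to 13.95 in heart and Myh1 at 13.53 to 13.70 in muscle. They did not everywhere: skeletal actin, Acta1, was 9.26 to 10.62 on the muscle arrays against 12.21 to 12.59 on the heart arrays, and the surfactant gene Sftpc was 6.75 to 9.84 in lung against 8.95 or more in the other tissues. Of the other muscle markers, Pvalb was 6.62 to 9.26 in muscle against 11.67 to 12.09 in lung. Atp2a1 (7.95 to 10.14) and Tnnc2 (7.63 to 9.79) in muscle overlapped their brain values, and Myh2 differed little between tissues. The lung marker Scgb1a1 was 13.62 on the brain control array and 8.59 on the lung control array. A difference in level between bulk samples cannot tell fewer cells of a type from less RNA per cell. Errors beside a log2 difference are standard errors of the fit, and a member is called where limma's adjusted p is under 0.05.

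The 250 bases upstream of the members' start sites were read for short motifs of known regulators of mitochondrial genes, on both strands. RefSeq (GRCm38.p6) held 63 such windows for 58 members and none for the other 14. The palindromic NRF1 motif, capitalised in the Atp5g2 window, stood in 4 of the members' windows (6.35%) and in 0.782% of all 32851 windows. The GABP motif CCGGAAG stood in 13 (20.6%, against 6.91% of all) and the ERR motif AAGGTCA in 2 (3.17%, against 4.08%). GGGCGG stood in 27 (42.9%, against 32.7%) and CCAAT in 25 (39.7%, against 33.8%), while median GC content was 57.6% against 52.4%. The 4 windows with the NRF1 letters are printed 5′ to 3′, with NRF1 and GABP letters in capitals. They lie at chr4:24897833-24898082 (plus strand, Ndufaf4), chr5:115348959-115349208 (minus, Cox6a1), chr15:102671048-102671297 (minus, Atp5g2) and chr5:108434400-108434649 (minus, Atp5k).
Ndufaf4: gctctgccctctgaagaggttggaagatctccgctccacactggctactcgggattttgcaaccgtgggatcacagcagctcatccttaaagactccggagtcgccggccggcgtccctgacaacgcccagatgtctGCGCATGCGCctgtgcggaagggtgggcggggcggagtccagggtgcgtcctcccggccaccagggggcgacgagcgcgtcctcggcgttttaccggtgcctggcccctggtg
Cox6a1: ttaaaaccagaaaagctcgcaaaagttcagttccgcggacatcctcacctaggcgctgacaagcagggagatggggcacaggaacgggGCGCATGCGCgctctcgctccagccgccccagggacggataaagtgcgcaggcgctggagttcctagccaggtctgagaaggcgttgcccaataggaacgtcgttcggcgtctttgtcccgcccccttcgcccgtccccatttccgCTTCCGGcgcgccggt
Atp5g2: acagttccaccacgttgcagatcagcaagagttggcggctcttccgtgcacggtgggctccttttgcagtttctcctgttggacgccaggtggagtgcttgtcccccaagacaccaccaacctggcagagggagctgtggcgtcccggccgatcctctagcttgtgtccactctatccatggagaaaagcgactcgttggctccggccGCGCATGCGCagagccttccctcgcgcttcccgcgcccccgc
Atp5k: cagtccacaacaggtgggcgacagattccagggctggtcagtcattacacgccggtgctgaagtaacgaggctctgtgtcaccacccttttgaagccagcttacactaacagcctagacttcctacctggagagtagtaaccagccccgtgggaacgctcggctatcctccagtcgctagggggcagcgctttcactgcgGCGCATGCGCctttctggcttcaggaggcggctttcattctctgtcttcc
Cox6a1 has the GABP letters on the other strand close to its start as well. The windows of the 2 members called in adipose tissue, Ndufa6 at chr15:82354292-82354541 (minus strand) and Cox7b at chrX:106015450-106015699 (plus strand), are printed as well. Like most of the members' windows, they hold none of the exact NRF1, GABP and ERR letters.
Ndufa6: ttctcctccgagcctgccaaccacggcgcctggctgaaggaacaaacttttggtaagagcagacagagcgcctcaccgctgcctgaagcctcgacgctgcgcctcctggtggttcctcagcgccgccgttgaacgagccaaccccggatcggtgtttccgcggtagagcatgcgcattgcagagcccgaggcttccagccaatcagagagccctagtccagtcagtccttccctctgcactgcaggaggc
Cox7b: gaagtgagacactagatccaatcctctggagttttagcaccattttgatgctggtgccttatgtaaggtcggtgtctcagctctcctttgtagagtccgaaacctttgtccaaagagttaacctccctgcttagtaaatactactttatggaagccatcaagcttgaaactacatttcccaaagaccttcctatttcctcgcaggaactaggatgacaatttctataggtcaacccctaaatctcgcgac
These matches describe the letters in a window and say nothing of a factor's binding. The windows were not compared between members that differ in their order of tissues.

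Across tissues, the respiratory chain stood highest in heart and skeletal muscle, lower in brain and lowest in lung. Heart had the highest mean of the 4 tissues for 42 members and muscle for 27, while lung had the lowest for 55 and brain for 11. For 58 of the 72 members heart and muscle were the top 2 tissues, a pattern held by 27 of 31 members of complex I, 6 of 6 of complex II, 7 of 8 of complex III and 12 of 14 of complex V, but by 6 of 13 of complex IV. Of the 67 members with enough signal to test, 18 differed between their highest and second highest tissue, 38 between the second and the next, and 37 between the lowest pair of neighbours, so that for 49 the top position was not separated beyond the spread. Cox5a, Cox8a, Ndufa12, Ndufc2 and Atp5j2 stayed below the signal filter.

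**Figure D1:**
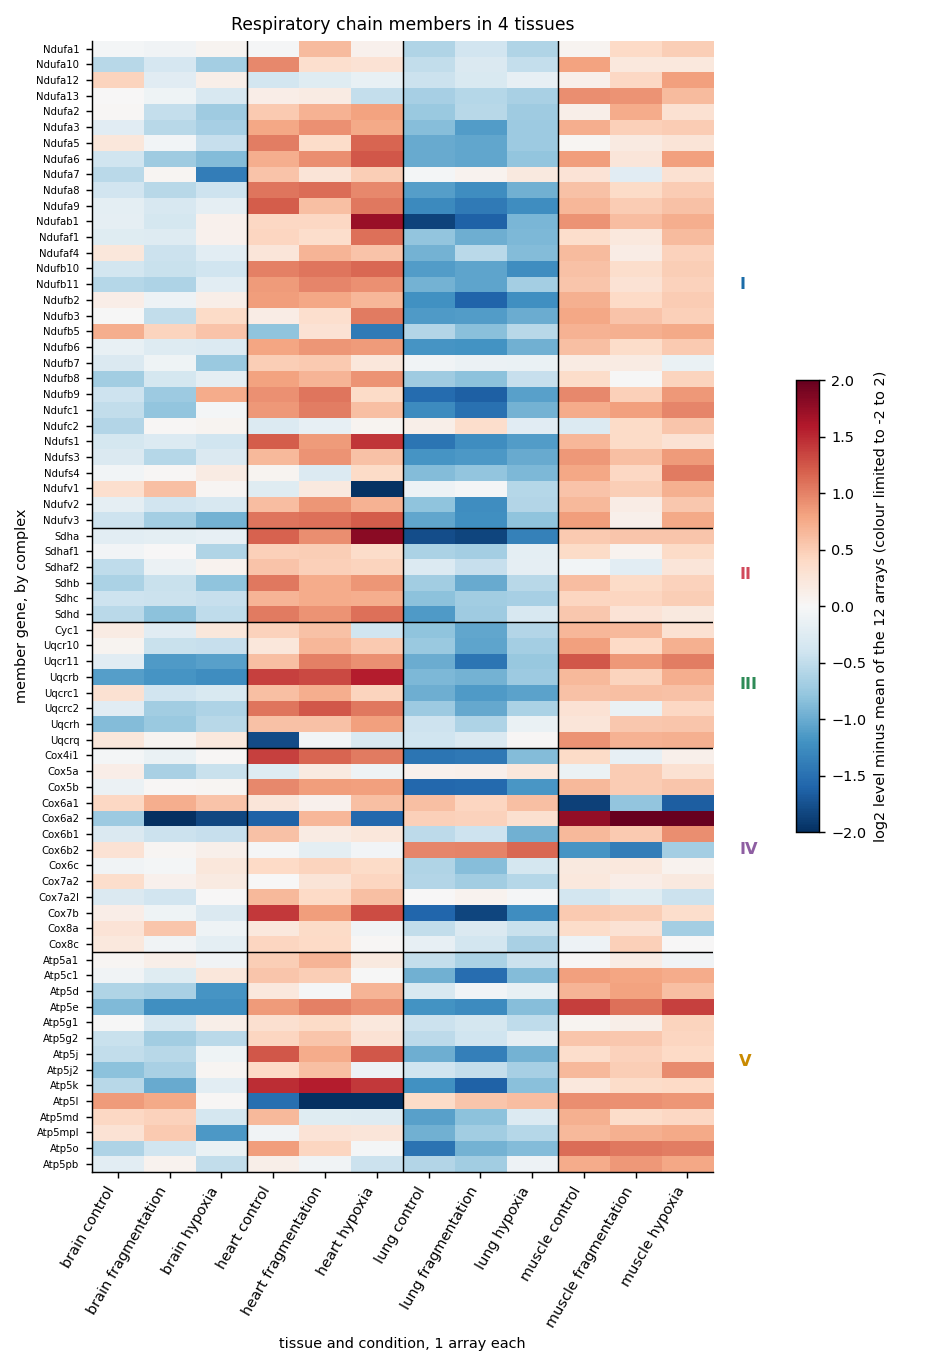
Log2 level of each of the 72 members (rows, by complex) on each of the 12 tissue arrays (columns), minus the member's mean over the arrays. Heart and muscle columns are mostly red and lung columns mostly blue, with Cox6a1, Cox6a2, Cox6b2 and Atp5l as rows that break the pattern.

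Heart exceeded brain in 47 of the 67 tested members and was below it in 3, against 23.4% and 22.4% of all probe sets tested in those directions. The median difference over the 72 members was 0.79 on the log2 scale, with complex medians of 1.03 for I, 1.32 for II, 1.07 for III, 0.36 for IV and 0.60 for V. The complex IV value was 0.60 without the brain control array and 0.20 without the brain fragmentation array. Against lung the contrast was wider: 56 members were higher in heart and 2 lower (27.8% and 25.3% of all), with a median of 1.32. Skeletal muscle exceeded brain in 45 members and was below it in 2 (26.7% and 25% of all), with a median of 0.74. Against lung it was higher in 59 and lower in 2 (31.9% and 29.8% of all), with a median of 1.30. Brain in turn was higher than lung in 35 and lower in 3 (27% and 24.3% of all), with a median of 0.50. These contrasts share arrays and are not independent. Leaving out the lung fragmentation array took the brain and lung calls from 38 to 24. The 3' to 5' signal ratio of the Actb control probes, a measure of RNA or labelling quality, was 0.0288, 0.0635 and 0.0351 on the lung arrays and 0.0343 on the brain hypoxia array, and 0.662 to 1.70 on the other 16 arrays. The corresponding Gapdh ratio was not low on these arrays, at 0.833, 0.915 and 0.821 in lung and 1.60 on the brain hypoxia array. The part of the Actb ratio in the low lung values was not tested.

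In complex I, Ndufs1, an iron-sulphur subunit that carries the first electrons inward, was 13.28, 12.93 and 13.50 in heart (control, fragmentation, hypoxia), 12.74, 12.45 and 12.36 in muscle, 11.72, 11.80 and 11.68 in brain, and 10.62, 10.83 and 10.95 in lung. The 4 tissues did not overlap, and heart exceeded lung by 2.44 ± 0.19 (limma adjusted p 5.1e-06). Ndufv3, an accessory subunit of the same arm, was 11.93, 11.96 and 12.07 in heart and 10.45, 10.17 and 9.91 in brain, a difference of 1.81 ± 0.21 (adjusted p 4.8e-05). Ndufa6, which holds the acyl carrier protein onto the complex, exceeded brain by 1.62 ± 0.21 in heart and by 1.30 ± 0.21 in muscle. That carrier itself, Ndufab1, stood 2.32 ± 0.26 above lung in heart and 2.21 ± 0.26 in muscle, and Ndufa9, an accessory subunit near the joint of the arms, stood 2.26 ± 0.15 above lung in heart. Brain exceeded lung in 20 of the complex I members tested, led by Ndufb2 with 1.39 ± 0.15, Ndufab1 with 1.31 ± 0.26 and Ndufb9 with 1.28 ± 0.33, and was below it in none at the adjusted threshold.

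Complex II, which feeds electrons from the citrate cycle, was the set most uniformly high in heart: all 6 members had their highest mean there and their lowest in lung. Sdha, the flavoprotein that oxidises succinate, was 12.40, 12.15 and 13.02 in heart, 11.74, 11.77 and 11.78 in muscle, 11.01, 11.02 and 11.05 in brain, and 9.44, 9.38 and 9.86 in lung. The tissues formed 4 separate steps, with heart 2.96 ± 0.19 above lung (adjusted p 1.5e-06) and brain 1.46 ± 0.19 above lung (adjusted p 9.8e-05). Sdha was the complex II member called between brain and lung; Sdhb, Sdhc and Sdhd, the iron-sulphur subunit and the membrane anchors, were called above brain in both heart and muscle. Sdhd was 13.34, 13.20 and 13.39 in heart against 11.77, 11.47 and 11.79 in brain, a difference of 1.64 ± 0.21.

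In complex III, Uqcrb, a small subunit at the quinone site, showed the widest gap between heart and brain, 13.80, 13.76 and 14.01 against 11.34, 11.26 and 11.20, or 2.59 ± 0.15 (adjusted p 3.8e-07). Muscle, at 13.09, 12.89 and 13.17, lay between them, and lung, at 11.54, 11.49 and 11.71, was close to brain. Uqcr11, a small accessory subunit, was highest in muscle, with 13.24, 12.86 and 13.01 against 11.77, 10.87 and 10.91 in brain, a difference of 1.86 ± 0.25. The core protein Uqcrc1 had 13.49, 13.62 and 13.34 in heart and 13.48, 13.49 and 13.49 in muscle, which overlap, and both exceeded lung by 1.65 ± 0.18. Cyc1, the cytochrome c1 that hands electrons on to cytochrome c, exceeded lung by 1.03 ± 0.26 in heart, 1.35 ± 0.26 in muscle and 0.87 ± 0.26 in brain, and its differences between heart, muscle and brain were not called.

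Complex IV was mixed, with members that followed the order of the other complexes and members that did not. Cox7b, a small structural subunit, was 13.69, 13.11 and 13.57 in heart, 12.79, 12.77 and 12.62 in muscle, 12.40, 12.18 and 11.98 in brain, and 10.68, 10.43 and 11.02 in lung. Heart exceeded lung there by 2.74 ± 0.20 (adjusted p 2.9e-06), and the tissues again did not overlap. Cox4i1, the regulatory subunit, and Cox5b, which binds zinc, exceeded lung in heart by 2.44 ± 0.20 and 2.30 ± 0.16. Cox6b2 went the other way, at 9.48, 9.49 and 9.65 in lung, 8.79, 8.55 and 8.60 in brain, 8.48, 8.31 and 8.46 in heart and 7.33, 7.12 and 7.83 in muscle. Lung exceeded muscle there by 2.12 (muscle minus lung -2.12 ± 0.17, adjusted p 5.2e-06). The Cox6b2 probe set, the brightest of 3, is among those marked for shared probes or relaxed rules, so its values may hold signal of near copies. Its other probe sets are not given here.

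The isoforms of subunit 6a, a regulatory subunit of cytochrome oxidase, divided the tissues. Cox6a1, the form used by most tissues, was 10.81, 11.88 and 11.02 in muscle, against 12.91, 12.75 and 13.28 in heart, 13.09, 13.40 and 13.24 in brain and 13.27, 13.10 and 13.27 in lung. Muscle lay below every array of the other tissues, by 2.01 against brain (-2.01 ± 0.25, adjusted p 0.00010) and by 1.98 against lung (-1.98 ± 0.25). Cox6a2, the form known from heart and skeletal muscle, was highest in muscle at 13.07, 13.57 and 13.41, but in heart it was 9.69, 11.96 and 9.74. The heart values spread more than those of any other member in heart (SD 1.30), and they overlapped the brain values of 10.58, 8.98 and 9.49. Lung, at 11.78, 11.77 and 11.62, exceeded brain (brain minus lung -2.04 ± 0.55, adjusted p 0.010). Markers of heart muscle were present on the lung arrays too, with Myh6 at 11.43, 11.05 and 11.36 and Myl7 at 12.65, 12.26 and 12.23; the summed intensity of the 8 heart markers measured was 17481 to 24740 in lung and 45502 to 73451 in heart. Their part in the lung values was not tested. The left-out isoforms, by contrast, stood high in both contractile tissues: Cox7a1 was 13.64, 13.46 and 13.67 in heart, 11.46, 11.57 and 11.66 in muscle and at most 8.82 in brain and lung.

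**Figure D2:**
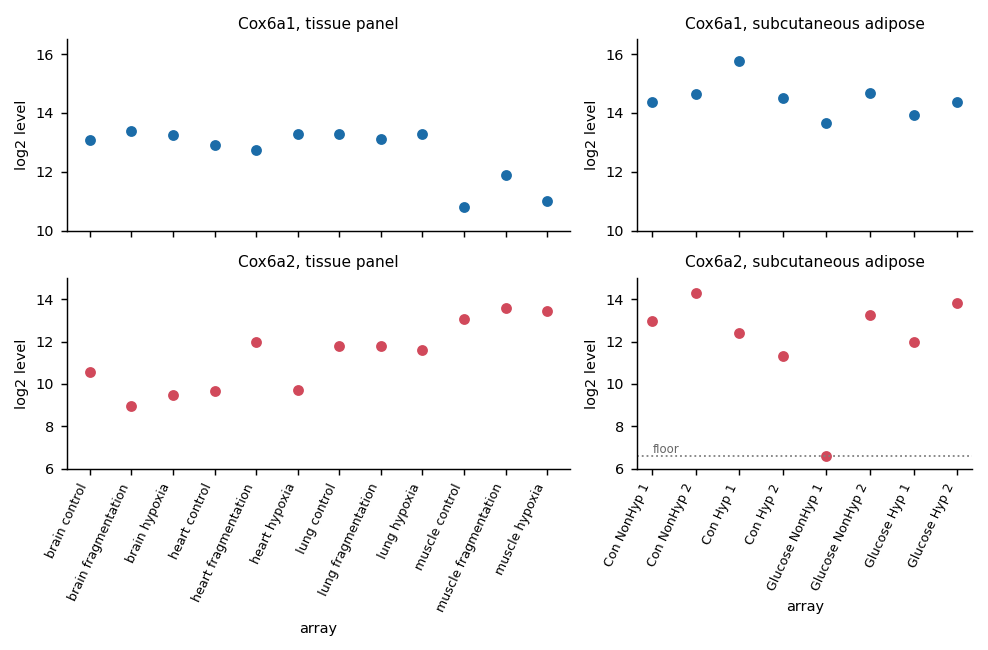
Log2 level of Cox6a1 (upper panels) and Cox6a2 (lower panels) on each tissue array and each adipose array, 1 point per array. Cox6a1 is lowest on the 3 muscle arrays, while Cox6a2 is highest there and is low on the heart control and hypoxia arrays; in adipose tissue Cox6a2 runs from the floor of 6.61 to 14.26.

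In complex V, Atp5e, the epsilon subunit of the central stalk, was 12.70, 12.84 and 12.76 in heart and 13.23, 12.94 and 13.21 in muscle, against 10.96, 10.62 and 10.62 in brain and 10.64, 10.58 and 10.99 in lung. The contractile tissues stood apart from the others, by 2.03 ± 0.17 for heart and 2.39 ± 0.17 for muscle against brain. Atp5k, subunit e of the membrane part, was the member that most exceeded brain in heart after Uqcrb, with 11.15, 11.25 and 11.09 against 9.11, 8.66 and 9.47, or 2.09 ± 0.21 (adjusted p 1.9e-05). Atp5o, the stalk protein that fixes the catalytic head, exceeded lung by 2.16 ± 0.25 in muscle and 1.51 ± 0.25 in heart. Atp5a1, the alpha subunit of the head, showed a narrow range, with 13.78, 13.97 and 13.49 in heart, 13.31, 13.43 and 13.22 in muscle, 13.33, 13.40 and 13.23 in brain and 12.81, 12.67 and 12.86 in lung. Heart exceeded brain there by 0.43 ± 0.16 (adjusted p 0.049), and lung lay below every other array.

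Set directly against each other, heart and muscle shared most of the chain but not its balance. Heart was higher in 15 of the 67 members and lower in 8, or 22.4% and 11.9%, against 13.9% and 11.1% of all probe sets, so the share called lower was near that background. Scaling to a common trimmed mean in place of quantile normalization gave 9 higher and 10 lower, 17 of them shared, and left 39 rather than 45 members with a positive difference. The median over members was 0.17, and the complexes differed in sign: 0.23 for I, 0.45 for II, -0.09 for III, 0.25 for IV and -0.40 for V (0.11, 0.36, -0.32, 0.11 and -0.47 under trimmed scaling). The complex III median had no stable sign, at 0.07 without the heart control array, 0.03 without heart hypoxia, -0.25 without heart fragmentation and -0.04 without muscle hypoxia, and that of complex V was -0.25 without heart hypoxia. Complex V had its highest mean in muscle for 10 of 14 members. Calls numbered 14 without the heart hypoxia array and 13 without the muscle hypoxia array.

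Members called higher in heart came from every complex. Uqcrc2, a core protein of complex III, was 13.17, 13.34 and 13.16 in heart and 12.39, 11.97 and 12.52 in muscle, a difference of 0.93 ± 0.19 (limma adjusted p 0.0051). Cox4i1 was 11.42, 11.21 and 11.08 against 10.43, 9.88 and 10.15, or 1.08 ± 0.20, although its other probe set gave -0.30 (adjusted p 0.23). Atp5k was 11.15, 11.25 and 11.09 against 9.88, 10.03 and 10.07, or 1.17 ± 0.21. The groups did not overlap in any of these. Smaller differences were called for Sdha (0.76 ± 0.19), Sdhd (0.68 ± 0.21), Ndufs1 (0.72 ± 0.19), Ndufb10 (0.60 ± 0.15), Ndufa8 (0.55 ± 0.15), Uqcrb (0.81 ± 0.15) and Atp5j, a coupling factor of the stalk (0.67 ± 0.17).

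Beside Cox6a2, several members called lower in heart had wide differences, and some of these varied among the 3 heart arrays. Atp5l, subunit g of the membrane part, was 10.99, 10.40 and 10.18 in heart and 13.41, 13.40 and 13.38 in muscle, a difference of -2.88 ± 0.23 (adjusted p 1.7e-05). Its heart values lay below every brain and lung array too, but its second probe set differed between heart and muscle by 0.04 (adjusted p 0.92). Uqcrq, a small complex III subunit, was 10.76, 12.49 and 12.24 in heart against 13.43, 13.24 and 13.25 in muscle (-1.48 ± 0.34). Ndufb5, in the membrane arm of complex I, was 12.30, 13.39 and 11.68 against 13.79, 13.81 and 13.85 (-1.36 ± 0.33), and Ndufv1, which binds NADH, was 12.80, 13.23 and 11.06 against 13.61, 13.54 and 13.75 (-1.27 ± 0.36). In the last 3 of these the muscle arrays lay close together, while heart arrays stood more than a log2 unit apart. Ndufb2 showed the reverse disagreement between its probe sets, 0.22 for the brightest and -3.80 for another (adjusted p 1.4e-06).

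The corresponding ratio of the Gapdh control probes was 0.443, 1.15 and 0.136 on the heart arrays and 0.0261, 0.264 and 0.00899 on the muscle arrays. Cardiac actin, Actc1, was 10.32, 13.22 and 11.35 on the heart arrays and 13.64, 13.13 and 13.24 on the muscle arrays. The control and hypoxia arrays of heart were thus the low ones for Actc1, Cox6a2 and Ndufb5 alike. The part of these measures in the heart values was not tested.

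**Figure D3:**
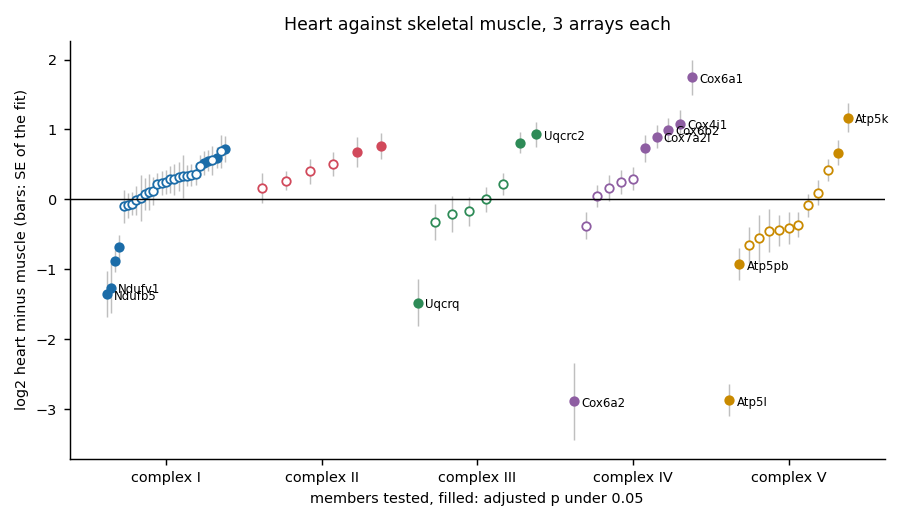
Log2 heart minus muscle for each of the 67 members tested, ordered within its complex; bars are standard errors of the limma fit, and filled points have an adjusted p under 0.05. Most members lie between -1 and 1, while Cox6a2 and Atp5l lie near -2.9 and Cox6a1 at 1.74.

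Other mitochondrial genes were read on the same arrays. Electron carriers and coenzyme Q enzymes exceeded brain in heart in 8 of 9 tested genes, with a median of 1.67 over the 10 measured, and mitochondrial ribosomal proteins in 38 of 53, with a median of 0.71, against 0.09 over all probe sets. Of all probe sets tested, 23.4% were called higher in heart than in brain and 22.4% lower. Between heart and muscle the shares were 13.9% higher and 11.1% lower in heart. Against muscle, heart was higher in 5 of 9 of the carriers and none was lower, led by Etfdh (2.22 ± 0.25) and Etfa (1.71 ± 0.22), which bring electrons from fatty acid oxidation to coenzyme Q. Of the assembly factors, 5 of 9 were higher in heart than in brain and Surf1 was lower (-0.48 ± 0.14). Among regulators of mitochondrial transcription, 5 of 8 were higher in heart than in brain and none was lower.

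Sleep fragmentation and hypoxia were then asked for changes shared by the 4 tissues, and none of the 67 members was called. Of all probe sets tested, limma called 0% in each of the 3 contrasts. At an unadjusted p under 0.05 there were 0 members for fragmentation against control, 1 for hypoxia against control and 4 for hypoxia against fragmentation, where all probe sets had 4.47%, 5% and 10%. Member medians were -0.07, 0.01 and 0.09. Single differences ran from -0.34 to 0.40 for fragmentation and from -0.59 to 0.59 for hypoxia against control, with a median standard error of 0.17. The hypoxia contrasts share the hypoxia arrays.

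Ndufab1 had the smallest p of complex I in both hypoxia contrasts. Against control the difference was 0.59 ± 0.22 (unadjusted p 0.025, limma adjusted p 0.90), with 12.16 against 11.89 in brain, 13.80 against 12.49 in heart, 11.16 against 10.22 in lung and 12.80 against 12.97 in muscle. It was thus higher after hypoxia in 3 tissues and lower in muscle. For the other complexes, the members with the smallest p for hypoxia against control were Sdha (0.28 ± 0.16), Uqcrh, the acidic hinge protein of complex III (0.28 ± 0.13), Cox8c (-0.30 ± 0.16) and Atp5l (-0.36 ± 0.20), none of them past the threshold.

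Within a tissue each condition is 1 array, so the following differences have no replicate check and no test. The lung hypoxia array stood above the lung control array for 56 of 72 members, with a median of 0.16, while 3694 of 7453 probe sets did so, with a median of 0.00. Complex medians there were 0.14 for I, 0.29 for II, 0.19 for III, 0.05 for IV and 0.30 for V. No member reached a 2-fold difference, where 1.33% of all probe sets were that much higher and 1.46% lower, and Ndufab1 (0.94), Atp5md, a small membrane subunit of the synthase (0.82), and Sdhd (0.82) came nearest. The same array carried more skeletal muscle signal: Myh1 was 11.15 against 6.73 on the lung control and 6.93 on the lung fragmentation array, Acta1 was 13.24 against 7.62 and 9.12, and the summed intensity of 18 muscle markers ran from 10675 to 29757 over the lung arrays. Its part in the members' difference was not tested.

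In muscle and brain the fragmentation arrays lay the other way. The muscle fragmentation array was below control for 48 of 72 members (median -0.14), where 3843 of 7453 probe sets were (median -0.01). Complex medians were -0.24 for I, -0.20 for II and III, -0.03 for IV and 0.03 for V, and Cox6a1 was 1.07 above. Adipoq, a marker of fat cells, was 12.76 on that array and 9.26 on the muscle control array. The brain fragmentation array was below control for 49 members (median -0.11), where 3763 of 7453 probe sets were (median -0.004). Complex medians were -0.17 for I, 0.04 for II, -0.42 for III, -0.14 for IV and -0.06 for V. Cox6a2 was 1.60 below (-1.60). Skeletal muscle markers also stood higher on the brain control array than on the fragmentation array, with Acta1 at 12.89 against 8.84 and Ckm at 8.41 against 7.17. The brain hypoxia array was below control for 45 members (median -0.11), where 3521 of 7453 probe sets were (median 0.03). All 5 complex medians were below 0 on the brain hypoxia array, from -0.27 for complex III to -0.01 for complex II. That array is the brain array with the low Actb ratio, whose part in this was not tested. The part of fat or muscle tissue in these differences was not tested. In heart the members showed no common direction (medians 0.04 for fragmentation and -0.02 for hypoxia), and the widest differences were those of Cox6a2 (2.27), Uqcrq (1.73) and Ndufb5 (1.09) for fragmentation, and of Ndufv1 (-1.74) and Uqcrq (1.48) for hypoxia.

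**Figure D4:**
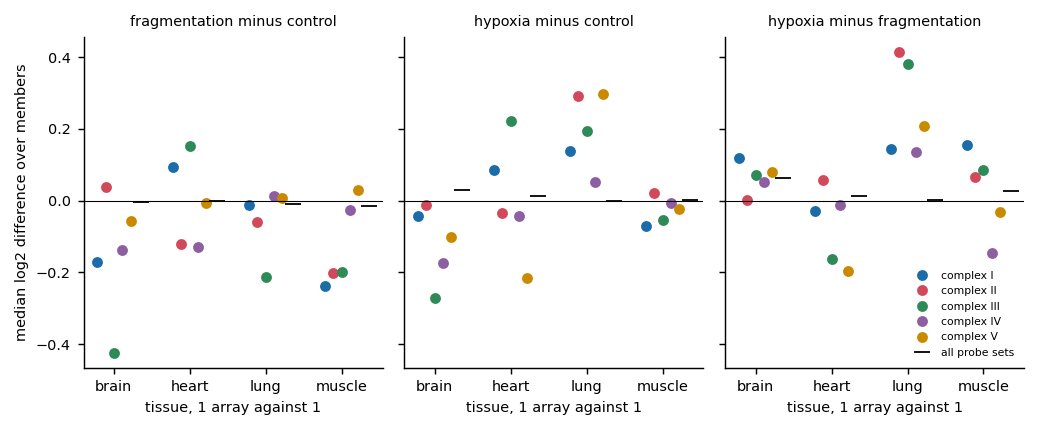
Median log2 difference of the members of each complex between conditions within each tissue, from 1 array against 1, with the median of all 7453 probe sets as a black dash. In lung all 5 complexes lie above 0 for hypoxia against control, in brain all 5 lie below 0, and in heart and muscle the complexes differ in sign.

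In subcutaneous adipose tissue most members had a negative Glucose minus Con difference, but few differences passed the test. Of 66 members tested, 2 were called lower and 0 higher, or 3.03% and 0%, against 3.54% and 4.04% of all probe sets (7.58% in either direction), so that the called share was at the background. The direction was more common than the calls: 63 of the 72 members had a negative difference, where 47.3% of all probe sets tested did. The 72 include 6 members below the signal filter, while that share covers only probe sets past it. Members also ranked high in level, at a median percentile of 87.0 to 97.5 over the adipose arrays. No share among probe sets of like level is given here. The median was -0.88 over members and 0.04 over all probe sets. At an unadjusted p under 0.05 there were 35 members, against 24% of all probe sets. In 17 members (25.8% of those tested) every Glucose array lay below every Con array, as did 8.33% of all probe sets. No member lay wholly above, where 11.4% of all did.

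The 2 called members were Ndufa6 and Cox7b. Ndufa6 was 11.91 and 10.73 in Con NonHyp, 11.74 and 10.81 in Con Hyp, 9.55 and 9.96 in Glucose NonHyp and 9.43 and 9.86 in Glucose Hyp. The difference was -1.60 ± 0.36 (limma adjusted p 0.041). Cox7b was 13.00, 11.70, 13.26 and 11.79 on the Con arrays and 9.20, 11.08, 9.95 and 10.42 on the Glucose arrays in the same order, a difference of -2.28 ± 0.55 (adjusted p 0.048). In both, Con arrays numbered 1 were the highest of all. With a block for the s2 or s4 mark in the array titles the differences were the same and 0 members were called. Calls depended on single arrays: 9 members were called without Con Hyp 2, 1 without Con NonHyp 2, 2 without Glucose NonHyp 2, and 0 when any of the other 5 was left out. Neither Ndufa6 nor Cox7b was among the 9. The shares of all probe sets called in these runs are not given here. The counts therefore do not tell a change in the members from a general shift in calls. Leaving out both Con arrays numbered 1 gave 0 calls, 3 members at an unadjusted p under 0.05 and a median of -0.42.

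All 5 complexes shared the negative direction, with medians of -0.84 for I, -0.88 for II, -1.28 for III, -0.89 for IV and -0.67 for V. Without both Con arrays numbered 1 these were -0.33, -0.41, -0.60, -0.44 and -0.44. Single arrays also moved them: without Con Hyp 1 the first 3 were -0.46, -0.52 and -0.77, without Glucose NonHyp 1 complex IV was -0.49, and without Con Hyp 2 complex V was -1.01. In complex III 8 of 8 members had a negative difference, from -1.79 ± 0.58 for Uqcr11 to -0.98 ± 0.50 for Uqcrb, none of them called. Uqcr10, a small accessory subunit, was 13.83, 12.91, 14.25 and 12.47 on the Con arrays and 11.68, 12.19, 12.06 and 11.85 on the Glucose arrays (-1.42 ± 0.43, adjusted p 0.10). The groups did not overlap, with the Con arrays numbered 2 close above the Glucose arrays.

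In complex II, Sdhb was 13.91, 13.22, 14.69 and 12.68 on the Con arrays and 12.02, 12.15, 11.79 and 12.09 on the Glucose arrays (-1.61 ± 0.44, adjusted p 0.077). It was the member of complex II whose groups did not overlap, and the Glucose arrays varied little. Atp5e of complex V was 12.49, 11.20, 12.71 and 11.12 against 9.04, 10.29, 9.79 and 10.49 (-1.98 ± 0.50, adjusted p 0.059), also without overlap. Ndufs1 (-0.79 ± 0.36), Ndufv1 (-0.88 ± 0.37), Ndufb5 (-1.22 ± 0.49), Sdha (-0.98 ± 0.40), Uqcrc1 (-1.07 ± 0.39), Cyc1 (-1.09 ± 0.49), Cox5b (-1.11 ± 0.44), Cox7a2 (-1.31 ± 0.41), Cox4i1 (-0.85 ± 0.49), Cox6a1 (-0.66 ± 0.37) and Atp5a1 (-0.53 ± 0.39) did not pass. The other probe set of Cox4i1 had the opposite sign (0.66, adjusted p 0.34). The positive differences were small and not called, the widest being that of Ndufa10, an accessory subunit of complex I (0.59 ± 0.32).

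The arrays with high members also carried brown fat genes. The median deviation of the 72 members from the mean of the 8 arrays was 0.82 on Con NonHyp 1 and 1.17 on Con Hyp 1, but 0.12 on Con NonHyp 2 and -0.22 on Con Hyp 2. It was -0.78 and -0.12 in Glucose NonHyp and -0.60 and -0.34 in Glucose Hyp. Con Hyp 2 thus lay below Glucose NonHyp 2. Ucp1, the uncoupling protein of brown fat, was 13.18 on Con NonHyp 1 and 12.52 on Con Hyp 1 and from the floor of 6.61 to 8.72 on the other 6 arrays. The left-out isoform Cox7a1, itself a brown fat marker, was 12.34 and 12.48 on those arrays and 6.61 to 8.54 on the rest. Brown fat signal was not confined to those arrays. Cidea was 11.86 on Con NonHyp 2 and 10.35 on Con Hyp 2, against 6.61 to 7.65 on the Glucose arrays. Cox8b was 12.44 and 10.99 there, against 9.27 to 10.83. Elovl3, Dio2 and Zic1, like Ucp1 and Cox7a1, did not set both Con arrays numbered 2 above every Glucose array. Of 9 brown adipocyte markers 7 were measured. Their summed intensity ran from 3621 to 79620 over the Con arrays and from 1115 to 2774 over the Glucose arrays. It was 10118 on Con NonHyp 2 and 3621 on Con Hyp 2. The part of brown fat in the members' difference was not tested.

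Skeletal muscle signal was present as well, and Cox6a2 moved with it. Cox6a2 was 12.95, 14.26, 12.40 and 11.32 on the Con arrays and 6.61, 13.25, 11.98 and 13.81 on the Glucose arrays, so it lay at the floor on Glucose NonHyp 1. The muscle creatine kinase Ckm was at the floor on that array too and at 11.02 to 13.72 on the other 7. All 18 muscle markers were measured, with summed intensities of 85484 to 265644 over Con and 19524 to 175656 over Glucose. Some muscle markers followed the brown fat genes instead. Tnni1 was 11.41 on Con NonHyp 1 and 11.15 on Con Hyp 1 and at most 8.78 on the rest. Myh7 was 12.11 and 11.10 on those arrays and at most 8.97 on the rest, and Tnnt1 was 10.60 and 10.26 against at most 9.36. No other muscle marker set both of those arrays above the rest. The Cox6a2 difference was -1.32 ± 1.31 and was not called. The part of muscle in the other members' values was not tested. The summed intensities of lymphocyte markers separated Con from Glucose without overlap, also on the Con arrays numbered 2. The summed intensity of the 7 B cell markers measured (of 8) was 7575 to 11254 over Con and 1248 to 2128 over Glucose. That of the 8 T cell markers measured (of 9) was 3339 to 4826 over Con and 288 to 664 over Glucose, with Cd3d, Cd3g, Cd8a and Cd8b1 at the floor on all 4 Glucose arrays. Thy1 was the brightest T cell marker on the Con arrays, at 10.31 to 11.47. Cd4, Cd3e and Cr2 did not separate the groups. Cd4 was 8.81 on Glucose NonHyp 1 against 7.14 on Con NonHyp 2. Cd3e was at the floor on every Con array but Con NonHyp 2, and Cr2 was at the floor on Con NonHyp 2. The sums of the adipocyte and macrophage markers overlapped between Con and Glucose. The part of lymphocytes in the members' difference was not tested.

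**Figure D5:**
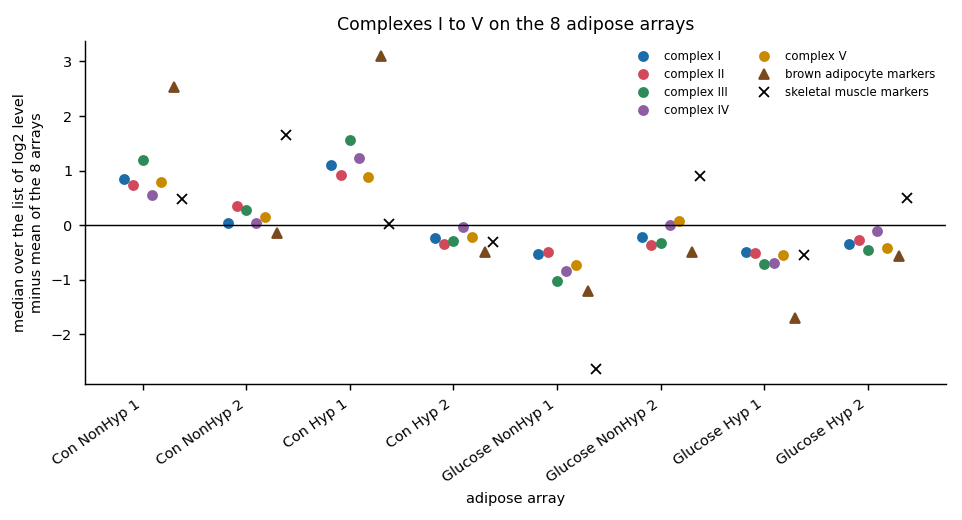
Median log2 deviation of the members of each complex, and of brown adipocyte and skeletal muscle markers, from the mean of the 8 adipose arrays, 1 position per array. The 2 Con arrays numbered 1 are highest for all 5 complexes and for the brown adipocyte markers. The median of the muscle markers follows another order, although single muscle markers were highest on those arrays too.

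Among other mitochondrial genes in adipose tissue, 54 of 61 mitochondrial ribosomal proteins had a negative Glucose minus Con difference, with a median of -0.42. The share was 47.3% of all probe sets tested, while the 61 include genes below the signal filter. Of the 54 tested 1 was called lower, where 3.54% of all probe sets were. None of the assembly factors, electron carriers, membrane carriers, regulators and import proteins was called, where 7.58% of all probe sets were in either direction.

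Intermittent hypoxia left no called difference in the members of adipose tissue. In the average contrast, within Con, within Glucose, and in the difference between those effects, limma called 0 of 66 members and 0% of all probe sets. No member had an unadjusted p under 0.05, where 1.48%, 2.92%, 2.13% and 3.3% of all probe sets did. The member medians were -0.03, 0.00, -0.05 and -0.03. Average differences ran from -0.71 to 0.61 with a median standard error of 0.40, so that small changes were not detectable with these arrays. In simulated data the average contrast called 11.4% of changes of 1 log2 unit and 60.9% of changes of 2. Changes of that size could thus go uncalled.

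By complex, the smallest p of the average contrast belonged to Ndufv3 (0.47 ± 0.39), Sdhc (-0.18 ± 0.29), Uqcrc1 (-0.26 ± 0.39), Cox6b2 (0.42 ± 0.38) and Atp5k (-0.32 ± 0.29). Ndufv3 was 11.94 and 10.66 in Con NonHyp against 12.27 and 11.35 in Con Hyp, and 10.78 and 9.94 in Glucose NonHyp against 10.65 and 10.93 in Glucose Hyp. The pairs overlapped in both Con and Glucose. The widest difference between the hypoxia effects was that of Cox6a2 (4.71 ± 2.63, unadjusted p 0.11), which rests on its floor value on Glucose NonHyp 1. Atp5g1, which encodes the proton-carrying c subunit, had -1.30 ± 0.70.

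The titles also carry an s2 or s4 mark whose meaning they do not state, with 1 array of each in every group. Within s2 the hypoxia medians of complexes I to V were -0.64, -0.53, -0.86, -0.49 and -0.61, and within s4 they were 0.52, 0.47, 0.76, 0.63 and 0.49. The directions were opposite in all 5 complexes, and the s2 Con NonHyp array and the s4 Con Hyp array were those with high Ucp1. For Glucose minus Con the member medians were -0.53 within s2 and -1.25 within s4, in the same direction.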

How the data were processed

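Expression was measured on 20 single-sample arrays, and the deposited values are intensities on a linear scale that the authors had scaled to much the same trimmed mean on all but the brain hypoxia array, as read from the values. The probe summarisation was not stated in the labels. Of 12488 probe sets, 66 are controls and were left out; of the remaining 12422, 10833 have a gene symbol to themselves, 396 several and 1193 none, and 10 probe sets that share a member's symbol with others were not used. The log2 offset, 97.7, is the percentile 20 of all positive values. On adipose arrays, where 17.5% to 21.2% of values lay at or below 0, lower values were set to it; on the tissue arrays it was added before quantile normalization. Probe sets under the percentile 40 of mean level (highest tissue mean) were dropped, leaving 7453 in either fit, 66 members in adipose tissue and 67 in the panel. Limma 3.58.1 under R 4.3.3 was run on all of them, with 4 group means in adipose tissue (4 residual degrees of freedom) and tissue plus condition in the panel (6), two-sided, with Benjamini-Hochberg adjustment over all probe sets. The fits were checked on simulated data. For Glucose minus Con, 10.7% of changes of 1 log2 unit and 64.4% of changes of 2 were called. The shares were 56.5% and 94.1% for heart against muscle, and 54.7% and 96.2% for hypoxia against control in the panel. Depth is not defined for arrays; the number of arrays limits the precision.

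The text names a fixed set of core subunits, up to 3 members per direction and complex among those called without overlap, the member with the smallest p of a complex without calls, and the extremes within a tissue. Atp5l's and other disagreeing probe sets, members with a positive adipose difference, and the markers quoted were picked after their values were seen. Members, lists and tests were chosen with earlier results of these data known. Alternatives were other offsets, no filter, an intensity trend, other scalings, blocks by letter or by s2 and s4, other probe sets and each array left out.

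The array letters a and b are called 1 and 2. They were not taken to pair the adipose arrays: deviations of same-letter arrays correlated at 0.18 within Con and 0.41 within Glucose, but at -0.14 to -0.05 between them.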

Additional observations from a re-analysis of the deposited data

Results flagged for a closer look

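Among groups of 4 adipose arrays, 4 values stood apart from the others by Dixon's criterion, which chance alone exceeds in about 1 of 20 groups. The check was run on the Con and on the Glucose values of each of the 66 members tested. It was also run on medians over all members and over each complex. Chance alone could thus give as many values. On the Con Hyp 1 array the median deviation of complex I members was 1.10, the highest of the 4 Hyp arrays. On the same array Cox6b1, which bridges the monomers of cytochrome oxidase, was 9.09, against 8.31, 8.38 and 8.36 on the other Con arrays. Ndufa2, a complex I accessory subunit, was 10.27 on Glucose Hyp 2, below the 10.87, 10.97 and 10.89 of the other Glucose arrays. Sdhaf1, an assembly factor of complex II, was 10.94 on Con Hyp 2, against 12.10, 12.08 and 12.25 on the other Con arrays.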

How the results depend on the processing

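Between Glucose and Con, 2 members were called as reported. The number was 1 with an offset of 50, 4 with 200, 0 without the filter, 5 with an intensity trend, 0 with an s2 and s4 block, 0 within s2, 1 within s4, 0 without both Con arrays numbered 1, and 0 of 8 tested with the second brightest probe set. The replicate block gave 0 calls and the crossed replicate block, added after the data were seen, 12; without each array in turn the range was 0 to 9. Trimmed-mean scaling turned the balance of heart and muscle calls, 19 in all (9 higher, 10 lower). With the second brightest probe sets, 9 of them tested, calls numbered 1 for heart against muscle, 6 against brain and 8 against lung, 6 for muscle against brain and 7 against lung, and 3 for brain against lung. With arrays left out in turn, calls ran from 13 to 25 for heart against muscle, 44 to 49 for heart against brain, 54 to 59 for heart against lung, 40 to 47 for muscle against brain, 57 to 62 for muscle against lung and 24 to 38 for brain against lung. The counts of 0 for hypoxia and fragmentation stayed 0 in each alternative run, the replicate block included. The shares of all probe sets called under these alternatives are not given here, so a shift need not be particular to the members. Beyond fewer members tested with second probe sets, the cause of these shifts was not tested. With 2 adipose arrays a group and 1 array per tissue and condition, small changes are not detectable, and many changes of 1 log2 unit can go uncalled. Values at the adipose floor give only a bound.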
